A study of Homo sapiens with 16 samples.

Results

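The genes described here are 8 genes of plasminogen activation and of the control of secreted proteases, PLAU, PLAUR, PLAT, SERPINE2, SERPINB5, CPA4, TIMP1 and TIMP2. They were listed by name, and all 8 were found among the 33937 genes of the count matrix. The list was chosen by the measured changes of SERPINE2 and CPA4 between the groups, so the values of these 2 genes are given as a description without a test. The other 6 genes were tested in fits over all genes, and their counts remain descriptive, because the list was made with the results of the same comparisons known. RNA was sequenced in 4 groups of 4 libraries from HCT116, a widely used line derived from a human colorectal carcinoma. The cells carried a scramble (SCR) control or a knockdown (KD) of NAA40, the N-terminal acetyltransferase of histones H4 and H2A, under an inducible short hairpin RNA. Each was cultured with doxycycline (dox, the inducer of the hairpin) at 1 μg/ml for 96 h, or without it, giving SCR (−dox), SCR (+dox), KD (−dox) and KD (+dox). The matrix thus came from 1 NAA40 hairpin in 1 cell line. The study's methods give the 4 RNA samples of a condition as independent, and whether each came from its own culture is not said. P-values measure the spread between these libraries.

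Urokinase (PLAU) and tissue-type plasminogen activator (PLAT) are serine proteases that convert the zymogen plasminogen to plasmin, which digests fibrin and matrix proteins. PLAUR is the urokinase receptor, a lipid-anchored protein that holds the enzyme at the cell surface. Serpins trap such proteases in covalent complexes, as SERPINE2 (protease nexin-1) does with thrombin, urokinase and plasmin. SERPINB5 (maspin) is an epithelial serpin that does not inhibit proteases in this way. CPA4 is a secreted carboxypeptidase, an enzyme that removes residues from the C-terminal end of peptides, and TIMP1 and TIMP2 are inhibitors of matrix metalloproteinases.

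Library totals ran from 11065606 to 13855486 assigned reads. The targeted gene went against the labels. NAA40 was at 34.7, 25.9, 29.1 and 28.7 CPM (read counts scaled to the size of each library, here by the trimmed mean of M-values, TMM) in the libraries labelled SCR (−dox) and at 26.2, 28.3, 26.3 and 28.2 CPM in those labelled SCR (+dox). It was at 12.5, 11.5, 9.32 and 13.4 CPM in the libraries labelled KD (−dox), but at 31.6, 29.3, 28.7 and 31.8 CPM in those labelled KD (+dox). The low libraries were thus those labelled as knockdown without the inducer, at 39.4% of SCR (−dox) (exact permutation p = 0.0286, the smallest that 4 against 4 allows). KD (+dox) was at 111% of SCR (+dox) (exact permutation p = 0.0286). The latter difference did not pass the edgeR test over all genes used below (log2 0.15, SE 0.10, adjusted p = 0.281). All group names below are the names on the labels, and every direction rests on them. The library labelled KD (−dox) replicate 4 stood apart. Its mean correlation with its group was 0.924, against 0.970 to 0.996 for the other 15 libraries, its mitochondrial share was 5.03% against 6.42% to 14.3%, and its colon epithelial markers summed to 10730 CPM against 3823 to 6081 CPM. Its fibroblast markers summed to 190 CPM against 58.1 to 93.9 CPM, and its endothelial markers to 4.70 CPM against 0.922 to 3.55 CPM. KRT8, KRT18 and KRT19 made up most of the epithelial sum. In KD (−dox), replicate 4 included, against SCR (−dox) they averaged 3120 against 1788, 976 against 633 and 2156 against 1387 CPM. CDH1 was at 164 against 137 CPM. EPCAM (316 against 318 CPM) and CDX2 (21.04 against 21.25 CPM) were not higher, and KRT20 was lower (1.87 against 6.10 CPM). These are averages of the groups and do not give the single markers in replicate 4. Results of the comparisons that hold it are given with and without it, and its part in them was otherwise not tested. Of 10 colon epithelial markers 7 were above 1 CPM on average, among them EPCAM and CDX2, while CDX1, VIL1 and LGALS4 were at or near 0. Leukocyte markers were near 0, 1 of 8 fibroblast markers (COL1A1) exceeded 1 CPM, and 2 of 4 endothelial markers did so in all groups but KD (+dox).

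Per kilobase of exon, TIMP1 had the highest level of the 8 genes, at 93.6 CPM per kb over the 16 libraries. CPA4 (45.7 ± 16.5 CPM per kb, SD, n = 16) and PLAU (44.6 ± 6.20 CPM per kb) followed, with ranges that overlapped. These SDs over 16 libraries include the differences between the groups. TIMP2 stood at 24.0 CPM per kb, PLAUR at 18.5, SERPINB5 at 11.2, SERPINE2 at 8.97 and PLAT at 1.88 CPM per kb. The ranges of SERPINB5 (SD 2.07) and SERPINE2 (SD 2.94 CPM per kb) also overlapped. The order was not the same in each group. In KD (+dox) CPA4, at 21.8 ± 0.586 CPM per kb (SD, n = 4), stood below PLAU (40.7 ± 2.30) and TIMP2 (30.4 ± 1.11), and SERPINE2 (11.2 ± 0.444) above SERPINB5 (9.95 ± 0.368). In KD (−dox) CPA4 (65.6 ± 1.11 CPM per kb) stood above PLAU (50.6 ± 2.03), and SERPINE2 was at 4.28 ± 0.313 CPM per kb. The genes lie on 8 chromosomes (GENCODE release 29, GRCh38), with SERPINE2 at chr2:223975112-224039319 on the minus strand and CPA4 at chr7:130293134-130324180 on the plus strand. Of PLAU's 2950 exonic bases (chr10:73909177-73917497), 916 are shared with the antisense gene C10orf55, and TIMP2 (chr17:78852977-78925387) shares 367 with an antisense RNA and others with CEP295NL. Counts in those stretches could not be attributed with certainty. PLAUR lies at chr19:43646095-43670547, PLAT at chr8:42175233-42207724, SERPINB5 at chr18:63476761-63505085 and TIMP1 at chrX:47582313-47586789, and none of them shares exonic bases with another gene.

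**Figure D1:**
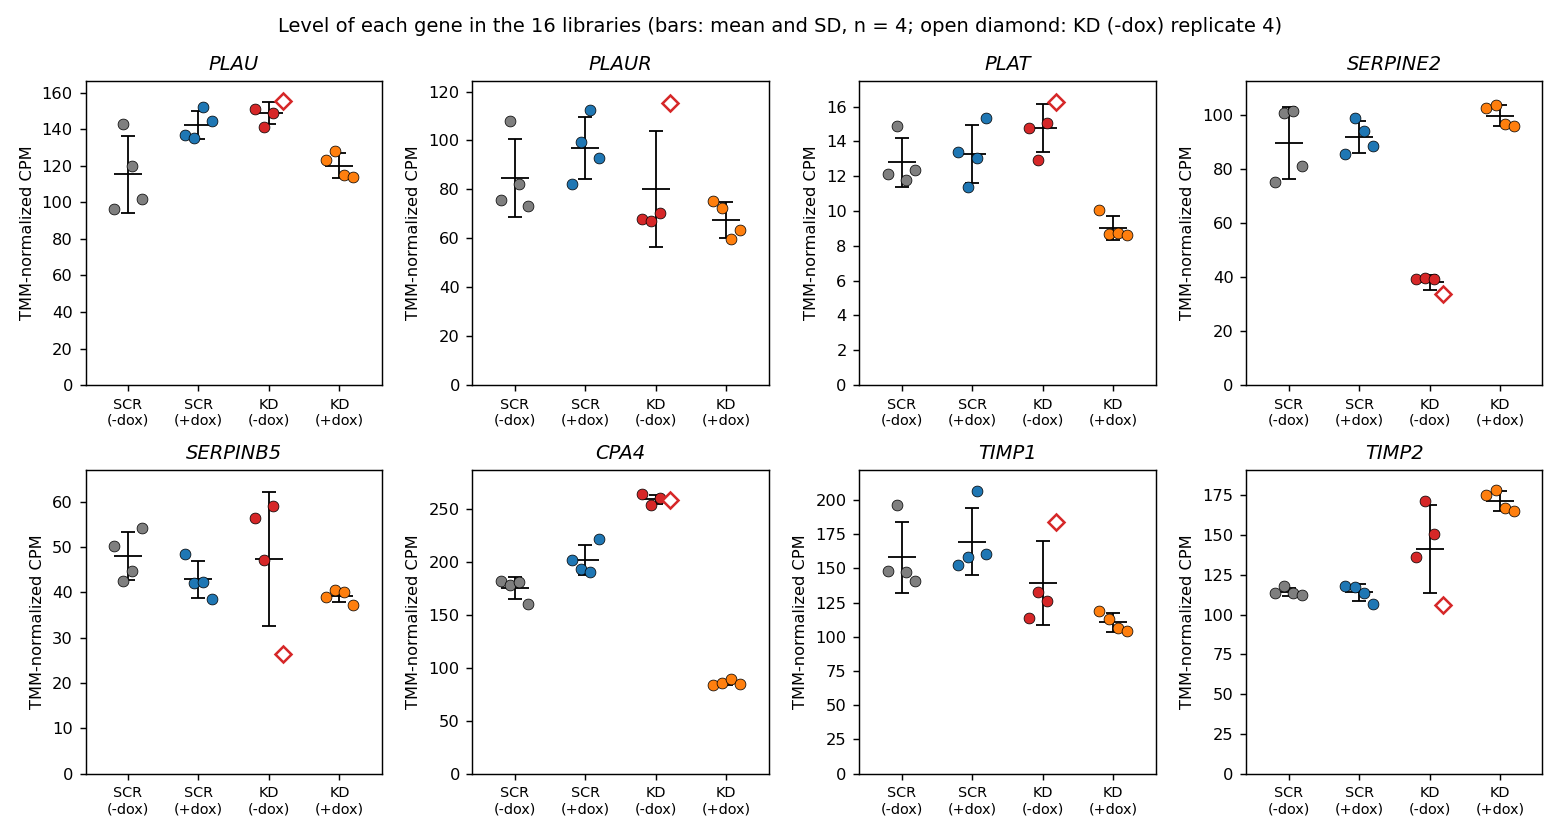
Level of each of the 8 genes (y axis, TMM-normalized CPM, from 0) in the 4 groups (x axis), with 1 point per library, bars for the mean and SD of 4 libraries, and an open diamond for KD (−dox) replicate 4. SERPINE2 is lowest in KD (−dox), at 33.8 to 39.6 CPM, and CPA4 is highest there, at 254 to 265 CPM, and lowest in KD (+dox), at 84.2 to 89.3 CPM.

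SERPINE2 was low in the libraries labelled KD (−dox) alone. It was at 75.2, 101, 101 and 81.2 CPM in SCR (−dox), at 85.4, 98.9, 94.1 and 88.5 CPM in SCR (+dox), at 39.4, 39.6, 39.2 and 33.8 CPM in KD (−dox) and at 103, 104, 96.6 and 96.0 CPM in KD (+dox). No KD (−dox) library reached any of the other 12, whereas KD (+dox) overlapped SCR (+dox). The level in KD (−dox) was 2.31-fold below SCR (−dox), a log2 fold change of −1.21 (SE 0.15), and −1.18 (SE 0.11) without replicate 4. KD (+dox) was 2.59-fold above KD (−dox), and KD (+dox) against SCR (+dox) had a log2 fold change of 0.11 (SE 0.08). NAA40 was lowest in the same 4 libraries as SERPINE2. In such bulk RNA, fewer cells with the transcript and less of it per cell cannot be told apart.

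CPA4 followed another order, with KD (−dox) highest and KD (+dox) lowest. It was at 182, 178, 181 and 160 CPM in SCR (−dox), at 202, 193, 191 and 222 CPM in SCR (+dox), at 265, 254, 261 and 259 CPM in KD (−dox) and at 84.2, 86.2, 89.3 and 84.7 CPM in KD (+dox). The 4 groups did not overlap anywhere. The log2 fold change was 0.60 (SE 0.12) for KD (−dox) against SCR (−dox), −1.24 (SE 0.09) for KD (+dox) against SCR (+dox) and −1.61 (SE 0.11) for KD (+dox) against KD (−dox). Without KD (−dox) replicate 4 the first was 0.58 and the last −1.60. In SCR cells dox went with a log2 difference of 0.21 (SE 0.10). The comparisons share groups, so these values are not independent of each other.

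Both genes can be set against each other within a library, where scaling between libraries plays no part. The ratio of CPA4 to SERPINE2 reads was 2.42, 1.77, 1.79 and 1.97 in SCR (−dox) and 2.37, 1.96, 2.03 and 2.50 in SCR (+dox). It was 6.71, 6.42, 6.65 and 7.66 in KD (−dox), and 0.820, 0.833, 0.924 and 0.882 in KD (+dox). The SCR groups overlapped, and each KD group lay outside them, on opposite sides. The ratio is one of reads and takes no account of the lengths of the genes.

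**Figure D2:**
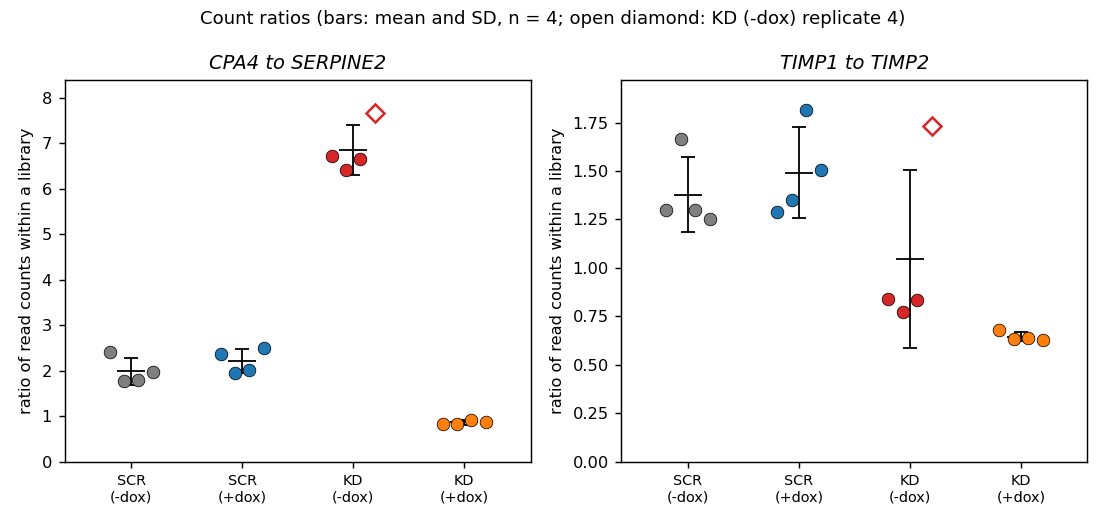
Ratio of read counts within each library (y axis, from 0) for CPA4 to SERPINE2 (left) and TIMP1 to TIMP2 (right) in the 4 groups, with 1 point per library, bars for the mean and SD of 4 libraries, and an open diamond for KD (−dox) replicate 4. CPA4 to SERPINE2 averages 6.86 in KD (−dox) and 0.865 in KD (+dox), and TIMP1 to TIMP2 lies below 1 in all 4 KD (+dox) libraries.

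The sequences upstream of the starts of these 2 genes are shown because their levels took different orders over the groups, with that of PLAUR, which fell in KD (+dox), beside them. They are the 250 bases before each RefSeq start (GRCh38.p14), 5′ to 3′ on the gene's strand. For CPA4 (chr7:130292911-130293160, plus strand) and PLAUR (chr19:43670170-43670419, minus strand), capitals mark TGANTCA, the motif of the AP-1 family of transcription factors, and TATAAA, the TATA box, read on both strands. For the 2 SERPINE2 starts (chr2:224031479-224031728 and chr2:224038641-224038890, minus strand), capitals mark CCAAT on either strand, the motif bound by NF-Y.
CPA4: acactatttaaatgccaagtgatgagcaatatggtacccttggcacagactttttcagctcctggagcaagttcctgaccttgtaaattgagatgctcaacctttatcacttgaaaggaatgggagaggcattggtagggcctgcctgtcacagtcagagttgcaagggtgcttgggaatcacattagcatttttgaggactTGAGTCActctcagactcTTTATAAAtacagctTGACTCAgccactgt
PLAUR: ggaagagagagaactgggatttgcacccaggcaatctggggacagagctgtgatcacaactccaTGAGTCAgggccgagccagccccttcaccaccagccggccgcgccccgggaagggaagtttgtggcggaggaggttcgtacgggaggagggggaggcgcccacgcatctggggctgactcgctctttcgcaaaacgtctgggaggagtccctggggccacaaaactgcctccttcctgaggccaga
SERPINE2 downstream start: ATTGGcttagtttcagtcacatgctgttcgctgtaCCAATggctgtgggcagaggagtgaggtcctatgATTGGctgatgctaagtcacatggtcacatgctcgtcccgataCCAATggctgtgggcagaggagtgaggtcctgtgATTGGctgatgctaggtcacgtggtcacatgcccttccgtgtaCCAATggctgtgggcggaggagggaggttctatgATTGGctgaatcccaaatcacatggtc
SERPINE2 upstream start: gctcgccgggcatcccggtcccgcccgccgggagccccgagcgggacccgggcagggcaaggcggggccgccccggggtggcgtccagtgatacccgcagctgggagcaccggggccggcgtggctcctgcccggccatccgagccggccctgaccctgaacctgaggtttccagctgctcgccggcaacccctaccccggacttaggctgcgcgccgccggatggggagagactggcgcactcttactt
The CPA4 window held TGANTCA 48 and 15 bases before the start, on either side of overlapping TATA matches at 30 and 28 bases. TGANTCA was present in 6.57% of the 35116 windows of the RefSeq table, at 2 or more places in 0.402%, and TATAAA in 10.7%. PLAUR had 1 TGANTCA, 186 bases before its start, and SERPINB5 had 1 at 146 bases. Neither SERPINE2 window, neither PLAU window and no TIMP1 window held it. The window of the downstream SERPINE2 start held CCAAT 7 times in a repeated unit, against 1 or more in 32.0% of all windows and 7 or more in 7 windows. That of the upstream start had a GC content of 75.2% and no CCAAT, and CPA4 had a GC content of 44.4%. CPA4 also held CCAAT, unmarked above, 120 bases before its start, and 1 PLAU window held it at 182 bases. GGGCGG, the GC box bound by Sp1, was in 42.6% of all windows and occurred at both SERPINE2 starts, at 1 PLAU start, in SERPINB5 and in TIMP1, but not in CPA4 or PLAUR. These matches describe letters, chosen after the sequences were seen, and binding was not measured. The upstream sequences of PLAT and TIMP2 were not analysed here.

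Without dox, the question of the line comparison is which genes differ between KD and SCR cells, and none of the 6 tested genes passed an adjusted p of 0.05 with all 8 libraries. Over all 13903 genes, 2.88% were higher and 3.54% lower. PLAU was at 96.6, 143, 120 and 102 CPM in SCR (−dox) and at 151, 141, 149 and 156 CPM in KD (−dox), or 0.40 higher on the log2 scale (SE 0.16, adjusted p = 0.166 by the quasi-likelihood test of edgeR, with the Benjamini-Hochberg method over all genes). The groups overlapped through 1 SCR library. TIMP2 was at 114, 118, 113 and 112 CPM in SCR (−dox) and at 136, 171, 151 and 106 CPM in KD (−dox), where replicate 4 alone lay below the controls. TIMP1 had the opposite layout, at 148, 196, 147 and 141 CPM in SCR (−dox) and at 114, 133, 126 and 184 CPM in KD (−dox), with replicate 4 the highest KD library. Without that replicate PLAU (log2 0.36, edgeR adjusted p = 0.0234) and TIMP2 (0.43, adjusted p = 0.00166) were higher and TIMP1 was lower (−0.34, adjusted p = 0.0277), beside 17.1% of all genes higher and 19.4% lower. PLAUR (log2 −0.30), PLAT (0.17) and SERPINB5 (0.19) did not pass in that fit either.

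With dox, 5 of the 6 tested genes differed between the lines. The receptor and both activators fell together with TIMP1, and TIMP2 rose. Of all 13869 genes, 13.7% were lower and 10.9% higher, beside 4 and 1 of the 6. PLAUR was at 82.3, 99.3, 113 and 92.9 CPM in SCR (+dox) and at 75.2, 72.3, 59.6 and 63.4 CPM in KD (+dox), without overlap (log2 −0.53, SE 0.10, edgeR adjusted p = 0.00150). PLAT was at 13.4, 11.4, 13.0 and 15.4 CPM in SCR (+dox) and at 10.0, 8.67, 8.72 and 8.65 CPM in KD (+dox) (log2 −0.57, SE 0.13, edgeR adjusted p = 0.00377). It had 110 to 216 reads in these libraries, and the groups did not overlap. PLAU was at 137, 135, 152 and 145 CPM against 123, 128, 115 and 114 CPM, the smallest of the changes (log2 −0.25, SE 0.08, edgeR adjusted p = 0.0327). Its call was lost without any of the 4 KD (+dox) replicates (adjusted p 0.0526 to 0.126, edgeR), without the filter on low counts (adjusted p = 0.0762) and in a fit over all 16 libraries (adjusted p = 0.251). In the fit over 16 libraries that of PLAUR was lost too (adjusted p = 0.105).

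The tissue inhibitors moved apart in the same comparison. TIMP1 was at 153, 158, 206 and 161 CPM in SCR (+dox) and at 119, 113, 106 and 104 CPM in KD (+dox), a fall of 1.54-fold (log2 −0.62, SE 0.10, edgeR adjusted p = 0.000188). TIMP2 was at 118, 117, 114 and 107 CPM in SCR (+dox) and at 175, 178, 167 and 165 CPM in KD (+dox), a rise of 1.50-fold (log2 0.58, SE 0.08, edgeR adjusted p = 4.25e-05). Neither gene's groups overlapped. SERPINB5 was at 48.5, 42.0, 42.4 and 38.5 CPM against 38.9, 40.6, 40.0 and 37.3 CPM, with overlapping groups and a log2 difference of −0.13 (SE 0.09, edgeR adjusted p = 0.314). The ratio of TIMP1 to TIMP2 reads was 1.29, 1.35, 1.82 and 1.51 in SCR (+dox) and 0.679, 0.635, 0.637 and 0.628 in KD (+dox) (two-sided exact permutation p = 0.0286, 0.0571 adjusted over 4 comparisons). It was 1.30, 1.67, 1.30 and 1.25 in SCR (−dox) and 0.837, 0.774, 0.836 and 1.73 in KD (−dox) (exact permutation p = 0.143), where replicate 4 was the only KD library above 1. Between the KD groups the ratio did not overlap (exact permutation p = 0.0286, 0.0571 adjusted).

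Within the KD line, PLAT alone of the 6 tested genes fell with dox. It was at 14.8, 12.9, 15.0 and 16.2 CPM in KD (−dox) and, as given above, at 8.65 to 10.0 CPM in KD (+dox) (log2 −0.73, SE 0.14, edgeR adjusted p = 0.0129). Over all 13844 genes, 5.5% were lower and 4.71% higher. The call was lost without KD (+dox) replicate 2, 3 or 4 (adjusted p 0.0574 to 0.0632, edgeR) and without the filter on low counts (adjusted p = 0.0539). PLAU did not overlap between the groups either, at 141 to 156 CPM against 114 to 128 CPM, and differed by −0.33 on the log2 scale (SE 0.11, edgeR adjusted p = 0.0950). PLAUR was at 67.9, 67.1, 70.3 and 115 CPM in KD (−dox), and SERPINB5 at 56.3, 47.2, 59.1 and 26.4 CPM. In both genes replicate 4 was the extreme library, the highest for PLAUR and the lowest for SERPINB5. Without it 4 of the 6 were lower, PLAU (log2 −0.30, edgeR adjusted p = 4.61e-05), PLAT (−0.67, adjusted p = 2.21e-05), SERPINB5 (−0.48, adjusted p = 9.68e-06) and TIMP1 (−0.18, adjusted p = 0.0147). TIMP2 was higher (0.16, adjusted p = 0.0391) and PLAUR did not pass (−0.03, adjusted p = 0.750), beside 26.6% of all genes lower and 25.8% higher.

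In SCR cells, the comparison that shows what dox does without the hairpin to NAA40, none of the 6 tested genes passed by the edgeR test, and 0% of all 13882 genes passed. Unadjusted, 271 genes had a p under 0.05, and DESeq2 and limma-voom called 0 each. The log2 fold changes of the 6 genes lay between −0.15 (SERPINB5) and 0.31 (PLAU). PLAU, at 115 ± 21.0 CPM in SCR (−dox) and 142 ± 7.74 CPM in SCR (+dox) (SD, n = 4), overlapped through 1 library of SCR (−dox).

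The test of the interaction asked whether the change with dox differed between KD and SCR cells. It passed for both activators, though neither call held without the filter on low counts (edgeR adjusted p = 0.122 for PLAT and 0.181 for PLAU). The difference in log2 fold change was −0.80 for PLAT (SE 0.19, edgeR adjusted p = 0.0137) and −0.65 for PLAU (SE 0.17, edgeR adjusted p = 0.0259), so 2 of the 6 were lower and 0 higher. Of all 14392 genes, 4.91% were lower and 4.31% higher. PLAUR (−0.47), TIMP1 (−0.47), SERPINB5 (−0.13) and TIMP2 (0.26) did not pass, at edgeR adjusted p of 0.206 to 0.783. Without KD (−dox) replicate 4 PLAU stood at −0.62 (edgeR adjusted p = 0.00297) and PLAT at −0.75 (adjusted p = 0.00314), beside 12.3% of all genes lower and 11.9% higher. The PLAU call was lost without SCR (−dox) replicate 1 or 4, SCR (+dox) replicate 4 or KD (+dox) replicate 3 or 4 (adjusted p 0.0524 to 0.0606, edgeR). For SERPINE2 and CPA4 the difference was 1.33 and −1.83, as a description.

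**Figure D3:**
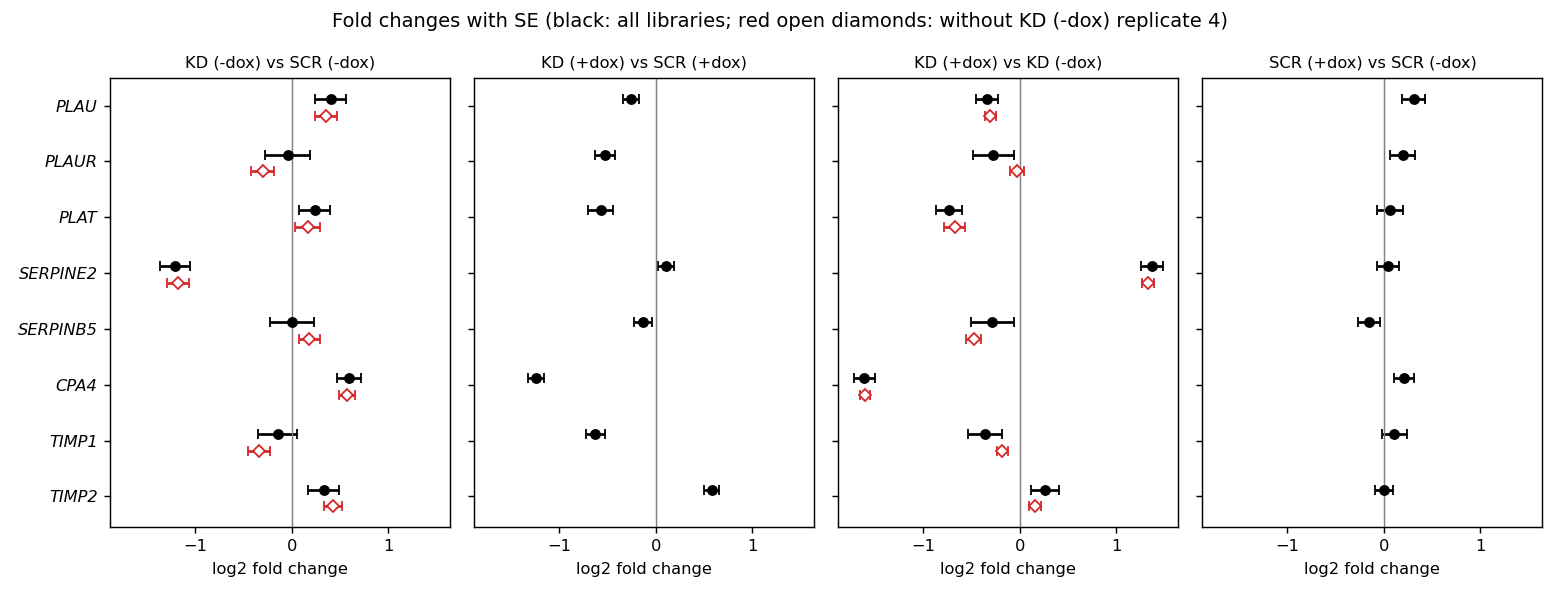
Log2 fold change (x axis) of the 8 genes (y axis) in the 4 pairwise comparisons, with bars for the SE. Black points use all 8 libraries of a comparison and open diamonds leave out KD (−dox) replicate 4. In KD (+dox) against SCR (+dox) TIMP1 is at −0.62 and TIMP2 at 0.58.

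LRP1, the endocytic receptor that clears complexes of serpins and proteases, was at 37.9, 42.4, 33.0 and 80.6 CPM in KD (−dox) and at 20.6, 20.5, 19.0 and 22.0 CPM in KD (+dox). The groups did not overlap (log2 −1.27, edgeR adjusted p = 0.0253), the difference was −0.89 without replicate 4 of KD (−dox) (adjusted p = 1.79e-08), and the call was lost without any 1 of the KD (+dox) replicates (adjusted p 0.0820 to 0.0940). LRP1 averaged 25.8 CPM in SCR (−dox) and 22.1 CPM in SCR (+dox). KD (+dox) overlapped SCR (+dox) (log2 −0.11, edgeR adjusted p = 0.613). KD (−dox) lay above SCR (−dox) without overlap (log2 0.95, edgeR adjusted p = 0.106). Without replicate 4 that difference was 0.56 (edgeR adjusted p = 0.0168). SERPINB2 (plasminogen activator inhibitor 2) had 0 or 1 reads in each library, and plasminogen itself was not analysed here.

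Beyond them, 171 further genes in 9 lists were followed, of which 158 were in the matrix. The lists covered the plasmin system, serpins, metalloproteinases, carboxypeptidases, surface serine proteases, cathepsins, small inhibitors and the AP-1 and ETS factors with EGR1. In KD (+dox) against SCR (+dox), 35 of the 101 tested were lower and 7 higher, beside 13.7% and 10.9% of all genes, with a median log2 fold change of −0.09 against −0.00 over all genes. Of 21 plasmin system partners 6 were lower and 1 higher. Of 15 cathepsins and cystatins 6 were lower and 0 higher, and of 16 metalloproteinases 2 were lower and 3 higher. The list with the most negative median was that of the AP-1 and ETS factors, with 8 of 14 lower, 0 higher and a median of −0.54. It also held EGR1, a factor of neither family, which was among those lower. Its largest fall was that of ATF3, a stress-responsive member of the AP-1 family, from 98.2 ± 20.1 to 46.9 ± 6.30 CPM (SD, n = 4, log2 −1.08, edgeR adjusted p = 1.99e-05). SERPINB8, an intracellular serpin that inhibits furin, fell from 15.6 ± 0.982 to 5.19 ± 0.492 CPM (SD, n = 4, log2 −1.59, edgeR adjusted p = 9.37e-08). SERPINI1 (neuroserpin) was lower too (log2 −1.10, edgeR adjusted p = 0.00625). MMP19 (−1.35) and TMPRSS11E (−1.89) were below 1 CPM in each KD (+dox) library. They passed the filter on low counts only through SCR (+dox), so their differences are given without a p. SERPINI1, MMP19 and TMPRSS11E averaged at most 2.15 CPM in either group. In a fit over all 16 libraries 12 of the wider lists' genes were lower and 2 higher, and 966 genes passed in all, against 3402 with 8 libraries.

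**Figure D4:**
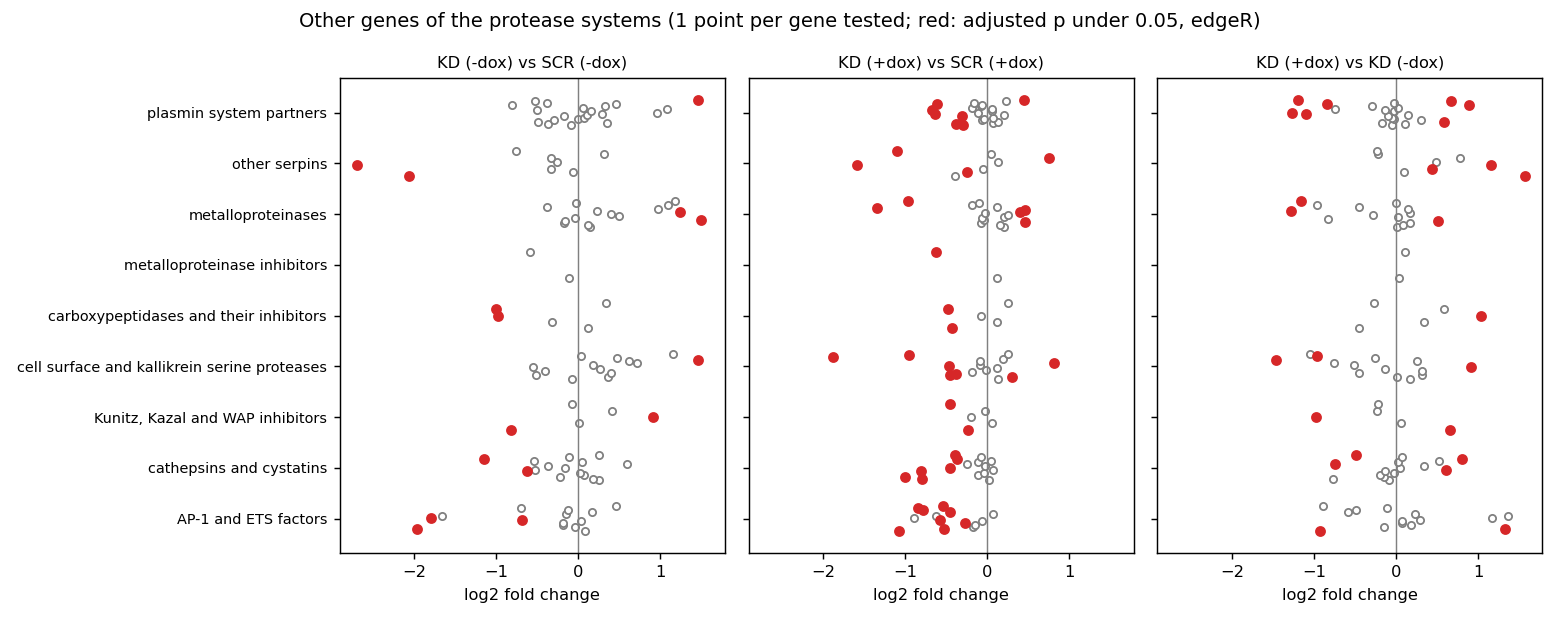
Log2 fold change (x axis) of each tested gene of the 9 wider lists (y axis) in the line comparisons without and with dox and in the dox comparison within the KD line. Filled points pass an adjusted p of 0.05 (edgeR). The list of AP-1 and ETS factors, which also holds EGR1, has 8 of 14 filled points with dox, all below 0.

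Without dox, 5 of 99 wider-list genes were higher in KD than in SCR cells and 10 lower, beside 2.88% and 3.54% of all genes. Without KD (−dox) replicate 4 the counts were 13 and 31, beside 17.1% and 19.4%. SERPINB8 was at 2.29 ± 0.718 CPM against 15.2 ± 4.52 CPM (SD, n = 4, log2 −2.70, edgeR adjusted p = 0.00292), so it was low in both KD groups. SERPINA1 (alpha-1-antitrypsin, an elastase inhibitor) was at 0.738 ± 0.148 against 3.18 ± 0.431 CPM (SD, n = 4, log2 −2.06). It was below 1 CPM in each KD (−dox) library and passed the filter on low counts only through SCR (−dox). Its difference is therefore given without a p. THBS1, a matrix protein that binds plasminogen and activates latent TGF-beta, rose from 7.36 ± 1.13 to 19.8 ± 3.02 CPM (SD, n = 4, log2 1.46, edgeR adjusted p = 0.00409). The immediate-early factor EGR1 fell from 374 ± 60.9 to 93.2 ± 27.0 CPM (SD, n = 4, log2 −1.97, edgeR adjusted p = 0.00366) and the cathepsin CTSV fell by 1.15 on the log2 scale (edgeR adjusted p = 0.00616, and 0.0596 with the replicate block). MMP14, the membrane metalloproteinase that TIMP2 binds (log2 1.24), the sheddase ADAM8 (1.50), prostasin (PRSS8, 1.46) and FOS (−1.80) passed as well, but MMP14, ADAM8 and FOS did so in 2 of 8 fits that left out 1 library, and PRSS8 in 5. With the replicate block MMP14, ADAM8 and PRSS8 did not pass (edgeR adjusted p 0.0585 to 0.152). Without KD (−dox) replicate 4 all 4 passed and were smaller except FOS, at 0.87 for MMP14, 1.12 for ADAM8, 1.13 for PRSS8 and −1.91 for FOS. The other named genes stood at −2.59 (SERPINB8), −2.12 (SERPINA1), 1.35 (THBS1), −2.10 (EGR1) and −1.06 (CTSV) in that fit. Without SCR (−dox) replicate 1, 3 or 4 the higher count fell to 1, and without replicate 1, 2, 3 or 4 of SCR (−dox) the lower count was 5. In those fits 226 to 283 of all genes passed, against 892 with all libraries.

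With dox within the KD line 13 of 98 wider-list genes were higher and 12 lower, beside 4.71% and 5.5% of all genes. Without KD (−dox) replicate 4 the counts were 37 and 24, beside 25.8% and 26.6%. SERPINB8 rose (log2 1.16, edgeR adjusted p = 0.0152), as did EGR1 (1.32, adjusted p = 0.00905) and CPE, a carboxypeptidase of the secretory pathway (1.03, adjusted p = 0.00227). SERPINA1 was higher by 1.57 on the log2 scale. It passed the filter on low counts only through KD (+dox), so no p is given for it. THBS1 (−1.20), MMP14 (−1.29), MMP28 (−1.17) and PRSS8 (−1.46) fell (edgeR adjusted p 0.00484 to 0.0436). Without KD (−dox) replicate 4 THBS1 was at −1.10, MMP14 at −0.94, MMP28 at −0.79 and PRSS8 at −1.15. In that fit SERPINA1 was at 1.62, SERPINB8 at 1.05, EGR1 at 1.45 and CPE at 1.02. All of them that carry a p above passed. Without any 1 KD (+dox) replicate 4 to 7 were higher and 5 lower, and in those fits MMP14 and MMP28 did not pass. From 380 to 502 of all genes passed there, against 1414 with all libraries. Of all 8 fits that left out 1 library of either group, MMP14 passed in 3 and MMP28 in 2. With the replicate block MMP28 did not pass either (adjusted p = 0.0862, edgeR). SERPINB8 was lost without KD (+dox) replicate 2, 3 or 4 (adjusted p 0.0577 to 0.0632, edgeR). The interaction had 10 of 103 higher and 10 lower, beside 4.31% and 4.91% of all genes, and 17 and 16 without KD (−dox) replicate 4, beside 11.9% and 12.3%. In SCR cells 0 of 101 passed with dox.

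Over the 16 libraries, the genes whose level was most like that of SERPINE2 were CPE (Pearson r = 0.969 of log2 CPM), the DNA repair helicase RAD54L (0.968) and the hyaluronan receptor CD44 (0.963). CPE averaged 64.2, 69.2, 31.8 and 65.9 CPM in SCR (−dox), SCR (+dox), KD (−dox) and KD (+dox), and CD44 609, 607, 382 and 660 CPM. Each was lowest where SERPINE2 was, which follows from picking them for this likeness. Most like CPA4 were RHPN2 (0.967), C1orf115 (0.964) and TBC1D22B (0.964). RHPN2, picked in the same way, averaged 82.2, 87.3, 108 and 61.6 CPM over the same groups. Among the 8 genes themselves PLAT was most like CPA4 (r = 0.912), and SERPINE2 and CPA4 had an r of −0.67. These values describe 16 points that share 4 groups and carry no p.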

How the data were processed

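The authors aligned reads with STAR and deposited raw counts per gene from featureCounts (whole numbers, not normalized). The methods name a mouse build and the processing notes a human one too, whereas each of the 33937 gene identifiers is a human Ensembl one. How strand was handled in counting is not given in the sources used here. No column was left unmatched (0). The members and lists were chosen with earlier results of these data known. Groups came from titles and treatment tags.

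Genes with CPM above 1 in at least 4 libraries of a fit were tested with edgeR 4.0.16 (R 4.3.3, TMM, robust quasi-likelihood) on the 8 libraries of a comparison, or all 16 for the interaction, with Benjamini-Hochberg adjustment over all genes tested. A gene passed at adjusted p under 0.05. SE is the fold change over the square root of F. Genes named from the wider lists passed at an absolute log2 fold change above 1 with groups that did not overlap (up to 5 per list). PLG (without a value), SERPINB2 and LRP1 were named in any case, as were the 3 genes most like SERPINE2 and CPA4 by Pearson's r. Some genes that these rules select are not reported here. Read ratios and NAA40 were tested by two-sided exact permutation. Alternatives were DESeq2 1.42.0, limma-voom 3.58.1, library totals, no filter, 16 libraries in 1 fit, the replicate number as a block, and leaving out each library. Symbols were found for 33590 identifiers, and 33811 were in GENCODE 29 (GRCh38). Of the 8 genes 6 had an upstream window in the RefSeq table. Same-numbered libraries were checked for pairing. Totals of 11065606 to 13855486 reads limit precision for rare transcripts.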

Additional observations from a re-analysis of the deposited data

Results flagged for a closer look

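Among 44 combinations of a gene and a group, 8 had 1 library far from the other 3. SERPINB2 had no reads in either KD group and could not be tested there. Chance flags about 1 in 20 of the groups tested. That rate does not hold for SERPINB2, where a single read among zeros is always flagged. PLAUR was at 115.5 CPM in KD (−dox) replicate 4, against 67.1 to 70.3 CPM in the other 3 libraries, and SERPINE2 was at 33.8 CPM there, against 39.2 to 39.6 CPM. That library also stood apart over all genes. PLAT was at 10.05 CPM in KD (+dox) replicate 1, against 8.65 to 8.72 CPM, and CPA4 at 160.1 CPM in SCR (−dox) replicate 4, against 178 to 182 CPM. TIMP1 was at 196.2 CPM in SCR (−dox) replicate 2, against 141 to 148 CPM, and at 206.3 CPM in SCR (+dox) replicate 3, against 153 to 161 CPM. SERPINB2 was at 0.0766 CPM in SCR (−dox) replicate 3 and 0.0778 CPM in SCR (+dox) replicate 2, which is 1 read in each, with 0 in the rest of those groups.

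The change with dox differed between KD and SCR cells, by the interaction test, for PLAU (log2 −0.65) and PLAT (−0.80). Both calls were lost without the filter on low counts (edgeR adjusted p = 0.181 and 0.122), and that of PLAU in 5 of 16 fits that left out 1 library. Each was lower with dox in KD cells relative to the change in SCR cells.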

How the results depend on the processing

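Over the alternatives run (DESeq2, limma-voom, library totals, no filter, 16 libraries in 1 fit, replicate block and leaving out each library) SERPINE2 and CPA4 kept their sign in every comparison between lines and within the KD line and in the interaction. CPA4 in KD (+dox) against KD (−dox) was −1.58 without the filter. Only SERPINE2 in SCR cells, near 0, took either sign. SERPINB5 in KD (−dox) against SCR (−dox), also near 0, turned to −0.046 with limma-voom, −0.010 with library totals, −0.028 without the filter, −0.00011 with 16 libraries in 1 fit and −0.041 with the replicate block, and ran from −0.11 to 0.19 with 1 library left out. In the same comparison PLAUR ran from −0.30 to 0.10. LRP1 in KD (+dox) against SCR (+dox) ran from −0.23 to 0.0099, and in SCR cells PLAT ran from −0.021 to 0.14 and TIMP2 from −0.014 to 0.028. NAA40 in KD (+dox) was at 111.86% of SCR (+dox) by library totals (exact permutation p = 0.0571), and between 109.60% and 113.38% with 1 library left out. NAA40 in SCR (+dox) ran from 88.4% to 97.6% of SCR (−dox).

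The counts of genes that passed changed more, and the cause was not tested. For KD (−dox) against SCR (−dox), 1 of the 6 tested genes was higher with 16 libraries in 1 fit, and with 1 library left out 0 to 2 were higher and 0 to 1 lower. Of the wider lists 11 were higher with DESeq2, 11 without the filter and 14 with 16 libraries, while 17 were lower with DESeq2 and 22 with 16 libraries. With 1 library left out 1 to 13 were higher and 5 to 31 lower. Of all genes tested, 892 of 13903 passed in the main fit, 1914 with DESeq2 and 1052 of 31026 without the filter. With 16 libraries 2951 of 14392 passed, and with 1 library left out 226 to 5021 genes passed. For KD (+dox) against SCR (+dox), the fit over 16 libraries left 2 of the 6 lower, and 12 lower and 2 higher of the wider lists. Of all genes 966 passed in that fit, against 3402 in the main fit. For KD (+dox) against KD (−dox), 2 of the 6 were lower with DESeq2 and 0 without the filter, with 0 to 4 lower and 0 to 1 higher with 1 library left out. Of the wider lists 4 to 37 were then higher and 5 to 24 lower. Of all genes 1414 passed in the main fit, 2526 with DESeq2, 1114 without the filter and 380 to 7183 with 1 library left out. In the interaction 0 of the 6 were lower without the filter and 1 to 2 with 1 library left out, and 5 of the wider lists were higher without the filter, with 7 to 17 higher and 6 to 16 lower with 1 library left out. Of all genes 1327 passed in the main fit, 1013 without the filter and 820 to 3467 with 1 library left out. The highest counts without KD (−dox) replicate 4 came with more genes called overall.

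Libraries with the same number did not deviate together throughout (r from −0.53 to 0.31), so the numbers were not taken to pair the samples. In KD (+dox) against KD (−dox) alone all these r were positive (0.042, 0.29, 0.14 and 0.31), so the range does not exclude pairing there. With the replicate block 1 gene of the wider lists was higher and 4 lower in KD (−dox) against SCR (−dox), and 8 were higher in KD (+dox) against KD (−dox). Of all genes, 82 passed in the former fit, against 892 in the main fit, and 777 in the latter, against 1414. No setting moved the median of all genes by more than 0.1 on the log2 scale. The limits are 4 libraries in a group, labels that the targeted gene contradicts in the KD line, and 1 library that widens the spread of KD (−dox).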
